A study of Mus musculus with 9 samples.

Results

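The tumours described here were SHH medulloblastomas of Lazy Piggy mice in which the sample sheet lists chromosome 10 as the site from which the transposon was launched. They were chosen as primary tumour entries with donor chromosome 10 and a tamoxifen label, counted by animal. This gave 90 tumours, 53 from animals with tamoxifen (TAM+) and 37 from untreated animals (TAM-), out of 119 tumours with an arm and a donor and 141 animals or control DNAs in the series. The other 29 tumours were launched from chromosome 7, 19 with tamoxifen and 10 without. The sheet lists days for 52 of the 53 animals with tamoxifen, from 4 to 249 with a median of 46.5, and does not say whether these are days of treatment or days to the end point. All animals share the genotype label lazy_piggy. The sources used here do not give the transposase and Cre alleles, the promoters that drive them, the tamoxifen dose or the animals' ages. DNA libraries hold no expression, so the tumour type rests on the label.

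A transposon that jumps into or next to a gene can switch it on or break it, and a gene hit in many independent tumours becomes a candidate cancer gene. Lazy Piggy joins a Sleeping Beauty (SB) element, which inserts at TA, with a piggyBac (PB) element, which inserts at TTAA and can leave without a scar. SB elements tend to land close to where they started, which is called local hopping, so the donor chromosome collects many insertions that need no selection. The series set out to find genes that keep the tumour going, and asked this by setting tumours with tamoxifen against tumours without. SHH medulloblastoma arises from granule neuron progenitors of the cerebellum in which the pathway held back by Ptch1 is active.

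Each tumour gave 3 kinds of library from sheared tumour DNA. IR libraries were amplified from the SB part, PB libraries from the PB part, and JX libraries from the boundary of both parts. The deposited values for these tumours were 387202634 counts over 546 libraries, sequenced in 9 lanes that each held tumours of both arms. Total IR counts per tumour ranged from 295999 to 6337620 with tamoxifen, with a median of 3417790, and the untreated median was 3275630. JX medians were 461933 with tamoxifen and 288272 without. PB depth varied most, from 1714 to 1642040 with tamoxifen (median 201605) and from 7071 to 2853050 without (median 216967). A site was called in a tumour when positions merged within 10 bp reached 10 counts together and 1% of what that tumour's highest site held. A site called in several tumours was credited to the one where its share was highest. Tumours hit, and tumours in which a site was called or found, are therefore tumours with a credited site unless stated. Numbers and percentages of called sites per tumour likewise count credited sites only. The highest site of a tumour was taken before crediting. Crediting ran over all 119 tumours with an arm and a donor. A site credited to a tumour launched from chromosome 7 was therefore not counted here. The labels describe no molecular identifiers and amplified reads are not separate molecules, so a site's share of a tumour's counts is given and not a counting interval.

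The donor label was checked against the insertions. In IR libraries 30.1% ± 20.7 of called sites lay on chromosome 10 with tamoxifen and 28.0% ± 14.6 without (SD, n = 53 and 37). In tumours launched from chromosome 7 the same share was 6.64% ± 13.2 with tamoxifen and 1.96% ± 3.24 without (SD, n = 19 and 10). A called IR site on chromosome 10 was present in 46 of the 53 tamoxifen tumours (86.8%) and in 34 of the 37 untreated ones (91.9%). In 3 tumours of each arm chromosome 7 held more called IR sites than chromosome 10.

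No gene was hit at a frequency that differed between the arms past an adjusted p of 0.05. In two-sided Fisher's exact tests over tumours, with Benjamini-Hochberg adjustment over the genes hit in at least 3 tumours, 0 of 25 genes passed in IR, 0 of 137 in JX and 0 of 29 in PB, which is 0% in each kind. At an unadjusted p under 0.05 the test called 2 PB genes, or 6.9% of those tested, and 0 in either of the other kinds. These 2 were Ppp1r12a and Ppfia2, both on chromosome 10 and both hit in more tumours with tamoxifen. A gene hit in 3 tumours cannot fall below p 0.0661 and one hit in 4 cannot fall below p 0.0258, so many of the genes tested had no room to pass in this exact test. The arms are labelled as separate animals, so the p values measure the spread between tumours. Crediting makes a tumour's hits depend on the sites of other tumours, which the exact test does not take into account.

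Ppp1r12a encodes the targeting subunit of myosin phosphatase, the enzyme that relaxes actomyosin. In mm9 its called PB sites lay on chromosome 10 between positions 107508193 and 107763835. PB sites were called there in 21 of the 53 tamoxifen tumours (39.6%) and in 7 of the 37 untreated tumours (18.9%), a difference of 20.7 percentage points with a 95% Newcombe interval from 1.25 to 37.1 that is not adjusted for the number of genes. Fisher's exact test gave p 0.0409 and an adjusted p of 0.593. The difference was smaller with either PB end alone. With the right end the counts were 13 tumours with tamoxifen and 9 without (p 1 in the exact test), and with the left end 18 and 9 (p 0.359 in the exact test). Depth by end also differed between the arms. Median right-end PB counts per tumour were 16348 with tamoxifen and 45402 without, and left-end medians were 173139 and 127816. Whether depth by end bears on the difference was not tested. With the 9 sequencing lanes as strata the exact conditional p was 0.0290, adjusted 0.431. With the site call raised to 5% of the highest site, 11 tumours with tamoxifen and 5 untreated tumours kept a PB hit.

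The other libraries gave smaller differences at Ppp1r12a. IR sites were called in 17 tumours with tamoxifen (32.1%) and 8 without (21.6%), with p 0.342 in Fisher's exact test. Credited JX sites fell in 14 (26.4%) and 11 (29.7%), with p 0.813 in the same exact test. With shared sites kept in every tumour, JX sites were called in 17 and 11 (32.1% and 29.7%). The sign of the JX difference changed under 7 settings of the processing. In any kind of library 25 tumours with tamoxifen (47.2%) and 13 untreated tumours (35.1%) carried a site. IR and PB sites were found together in 14 tumours with tamoxifen and 6 without.

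In the tumours with an insertion at Ppp1r12a, its share of the tumour's counts overlapped between the arms. Summed over the gene's called PB sites, the share of a tumour's PB counts ranged from 0.0709% to 60.2% with a median of 2.40% in the 21 tumours with tamoxifen. The 7 untreated tumours had 0.268%, 0.649%, 6.04%, 6.21%, 15.7%, 16.2% and 16.9%. In IR the median share was 5.45% over 17 tumours with tamoxifen and 5.46% over 8 untreated tumours, and the highest were 54.2% and 41.0%. A share of at least 10% of IR counts was found in 6 of these tumours with tamoxifen and 3 of the untreated ones. The ranges of both arms overlap in both kinds of library.

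The place of the insertions inside Ppp1r12a was looked at after the values were seen, so these counts are a description with no test. Intron 1 held 9 of 21 called IR sites with tamoxifen, in 8 tumours, and 0 of 11 untreated IR sites. In PB the intron 1 sites came from 8 tumours with tamoxifen and 2 without, and in JX from 5 and 1. The table lists 15 IR sites with tamoxifen in the orientation of the gene and 6 against it, and 5 and 6 without tamoxifen. For JX sites these were 15 and 19 with tamoxifen and 6 and 7 without, and for PB sites 21 and 15 with tamoxifen and 5 and 7 without. The listing can be reversed between kinds of library in 1 tumour. At Alx4 an untreated tumour had IR site 93507315 listed with the gene and PB site 93507390 against it. At En2 position 28496605, credited to the same tamoxifen tumour in IR and JX, the IR site was listed with the gene and the JX site against it. The listed orientations of PB and JX sites are therefore not to be read as the same measure as those of IR sites. Sites in the gene body were called in IR in 10 tumours with tamoxifen and 4 without, the rest of the sites being listed upstream or downstream.

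Ppfia2 encodes liprin alpha 2, a scaffold of the presynaptic active zone. PB sites were called in 7 of the 53 tamoxifen tumours (13.2%) and in 0 of the 37 untreated tumours, between 105934210 and 106305759 on chromosome 10 of mm9. The difference of 13.2 percentage points had a 95% interval from 1.68 to 24.8, and Fisher's exact test gave p 0.0385 and an adjusted p of 0.593. The 7 tumours carried 0.0703%, 0.199%, 0.355%, 0.366%, 0.477%, 1.91% and 21.9% of their PB counts there, so 5 of the 7 shares were below 0.5%. The 0 rests on the site call: at 0.1% of the highest site 25 tumours with tamoxifen and 11 untreated tumours had a PB site in Ppfia2 (p 0.127 in the exact test).

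Ppfia2 leaned the same way in the other kinds of library without passing. IR sites were called in 7 tumours with tamoxifen and 1 without (p 0.134 in Fisher's exact test), and JX sites in 9 and 3 (p 0.346 in the same exact test). The 7 tumours with tamoxifen held IR shares of 0.114%, 0.384%, 0.580%, 0.649%, 0.855%, 1.47% and 12.3%, and the untreated tumour held 0.217%, inside that range. All of these IR sites were intronic. In any kind of library 14 tumours with tamoxifen (26.4%) and 3 untreated tumours (8.11%) had a site, a set of libraries combined after the values were seen and not tested.

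**Figure D1:**
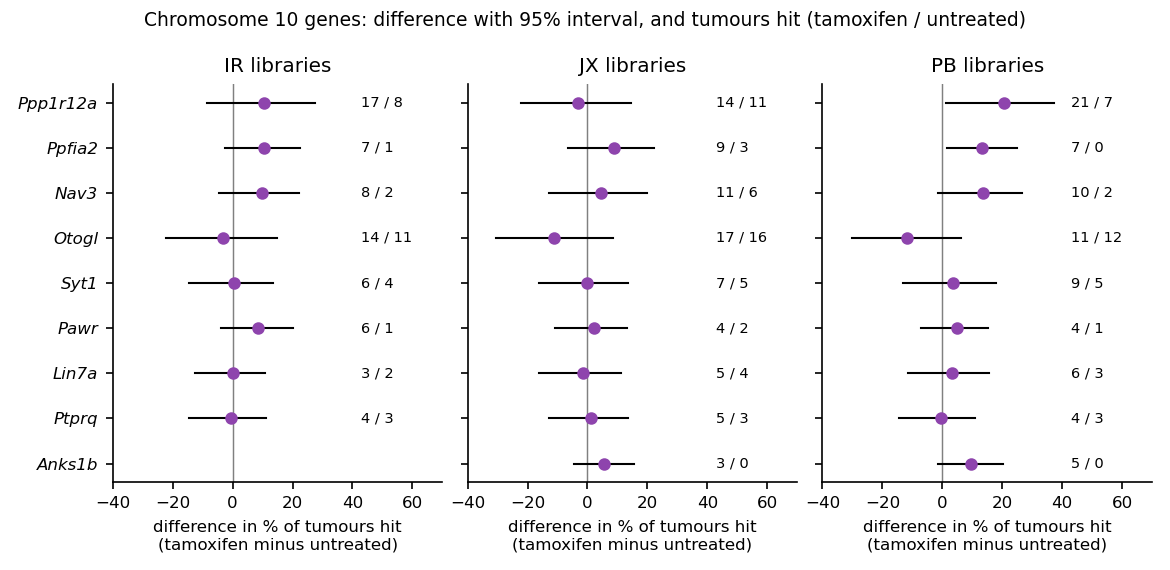
Difference in the percentage of tumours hit, tamoxifen minus untreated, for 9 chromosome 10 genes in IR, JX and PB libraries, with the 95% Newcombe interval as a line and the numbers of tumours hit (tamoxifen / untreated, of 53 and 37) at the right. The intervals are not adjusted for the number of genes, and those of Ppp1r12a and Ppfia2 in PB (1.25 to 37.1 and 1.68 to 24.8) lie above 0; a gene with no point was hit in fewer than 3 tumours in that kind of library.

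The other genes near the launch region gave differences in both directions. Nav3, which encodes a neuron navigator protein that binds microtubules, had PB sites in 10 tumours with tamoxifen and 2 without (18.9% and 5.41%, p 0.113 in Fisher's exact test), and IR sites in 8 and 2. Pawr, which encodes the pro-apoptotic protein Par-4, had IR sites in 6 and 1 and PB sites in 4 and 1. Syt1, the calcium sensor of synaptic vesicle release, had PB sites in 9 and 5 and IR sites in 6 and 4. Lin7a, which encodes a PDZ scaffold of cell polarity, had PB sites in 6 and 3 (11.3% and 8.11%). Ptprq, a receptor phosphatase of inner ear hair cells, had PB sites in 4 and 3 (7.55% and 8.11%). JX sites were called in 20.8% of tumours with tamoxifen and 16.2% without at Nav3, and in 7.55% and 5.41% at Pawr. The JX values were 13.2% and 13.5% at Syt1, 9.43% and 10.8% at Lin7a, and 9.43% and 8.11% at Ptprq. With shared sites kept in every tumour, the JX order turned at Pawr (7.55% and 8.11%), Syt1 (15.1% and 13.5%) and Lin7a (11.3% and 10.8%). It stayed the same at Nav3 and Ptprq.

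Otogl, the neighbour of Ppp1r12a whose product resembles otogelin, a protein of inner ear membranes, had the opposite order in PB. Its credited PB sites fell in 11 tumours with tamoxifen (20.8%) and 12 without (32.4%). The interval of the difference was from -30.0 to 6.36 percentage points, with p 0.229 in Fisher's exact test. Credited IR sites fell in 14 and 11 (26.4% and 29.7%) and JX sites in 17 and 16 (32.1% and 43.2%). With shared sites kept in every tumour, PB sites were called in 13 and 12 (24.5% and 32.4%, p 0.477 in Fisher's exact test). IR sites were then called in 14 and 12 and JX sites in 18 and 19. The median IR share summed over Otogl was 1.08% in the 14 tumours with tamoxifen and 5.44% in the 11 untreated tumours, with maxima of 9.67% and 40.9%. The JX medians were 0.962% and 0.611%, and the PB medians 1.10% and 1.06%. Ppp1r12a and Otogl therefore had percentages of opposite order in PB although their called sites begin within the same megabase, and the difference between the genes was not tested.

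**Figure D2:**
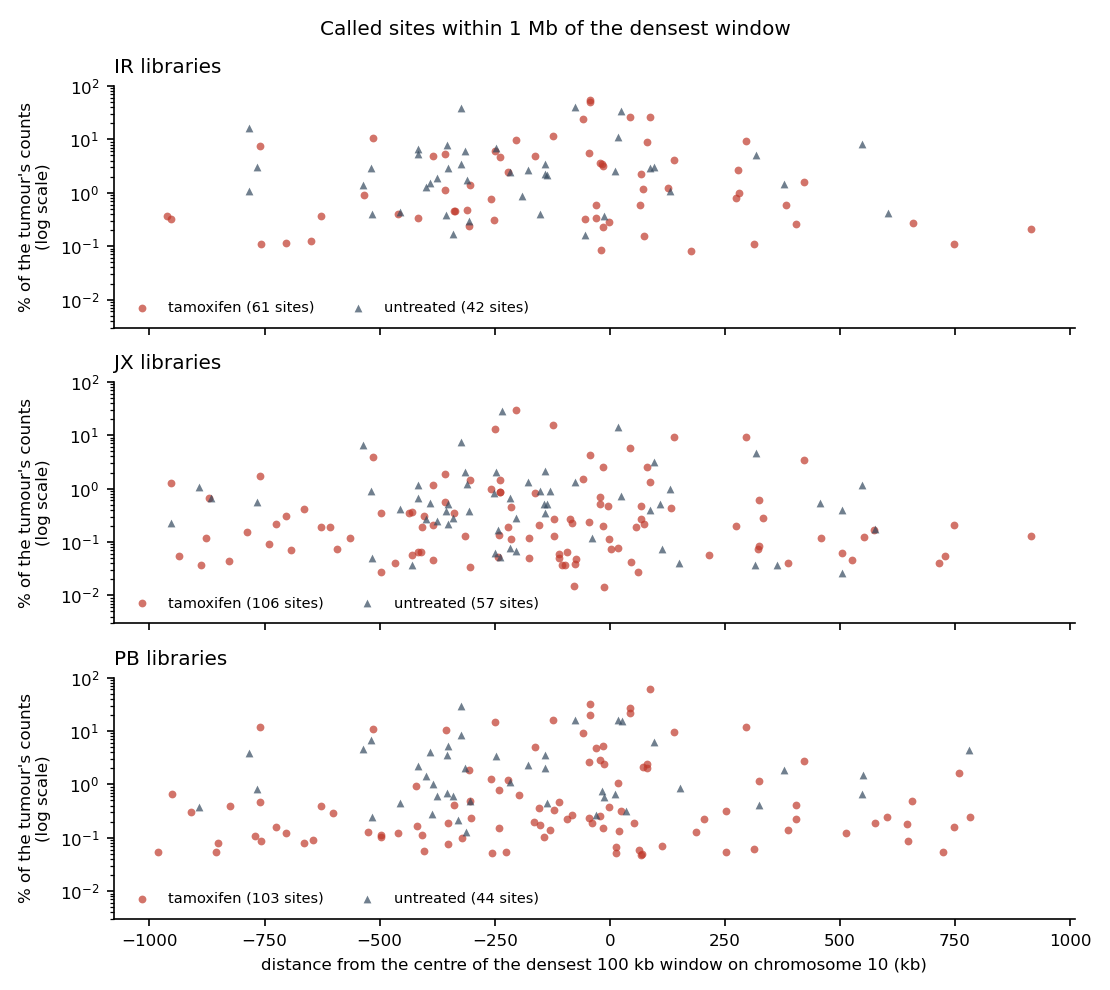
Called sites within 1 Mb of the centre of the 100 kb window of chromosome 10 with the most IR hits (horizontal axis, kb) against the site's share of its tumour's counts (vertical axis, log scale), with circles for tumours with tamoxifen and triangles for untreated tumours. Sites of both arms lie on both sides of the window, with 61 and 42 IR sites, 106 and 57 JX sites and 103 and 44 PB sites.

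Farther along chromosome 10, Anks1b, which encodes a postsynaptic scaffold, had PB sites in 5 tumours with tamoxifen and 0 without (p 0.0752 in Fisher's exact test, adjusted 0.727). A single tumour held 84.2% of its PB counts there, and the other 4 held 0.0855%, 0.185%, 0.229% and 0.273%. Pcdh15, a protocadherin of hair cell tip links, had IR sites in 4 and 0 tumours, each with under 1% of IR counts, and JX sites in 2 and 2. Ptprr, which encodes a receptor-type tyrosine phosphatase, had IR sites in 3 and 0 and JX sites in 4 and 2.

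Of the chromosome 10 genes tested, the percentage hit was higher with tamoxifen for 15 and lower for 2 in IR, higher for 26 and lower for 17 in JX, and higher for 19 and lower for 3 in PB. The median difference was 2.96 percentage points in IR, 1.07 in JX and 3.34 in PB. Among genes of the other chromosomes 5 were higher and 3 lower in IR, 69 were higher and 25 lower in JX, and 3 were higher and 4 lower in PB, with medians of 1.07, 1.07 and -3.52. A gene had to be hit in at least 3 tumours to enter these counts and the tamoxifen arm is the larger, so a gene of 2 tumours against 1 counts as higher. Neighbouring genes also share tumours, and the counts were not tested.

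The same comparison was made in windows, which do not use the gene listing. Of windows of 100 kb, 0 of 19 passed in IR, 0 of 74 in JX and 0 of 27 in PB, both after adjustment and at an unadjusted p under 0.05 in Fisher's exact test (0% in each). The window with the most IR hits, at 107600001 to 107700000 of chromosome 10, held IR sites in 10 tumours with tamoxifen and 4 without (p 0.383 in the exact test) and PB sites in 13 and 4 (p 0.170 in the exact test). In the window at 107300001 to 107400000 the counts were 7 and 5 in IR and 5 and 6 in PB. In windows of 500 kb the lowest PB p was that of 107500001 to 108000000, with 24 tumours with tamoxifen (45.3%) and 7 untreated tumours (18.9%, p 0.0129 in Fisher's exact test, adjusted 0.698). In IR and JX at that width, 108500001 to 109000000 had IR sites in 6 and 0 tumours (p 0.0406 in the exact test, adjusted 0.830) and 124000001 to 124500000 had JX sites in 0 and 4 (p 0.0258 in the exact test, adjusted 1).

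Local hops were then described by their distance from the densest window. That window was picked for its IR hits in these same tumours, 10 with tamoxifen and 4 without, and not from a known launch position. Distances from it are therefore not independent of the tumours compared. Within 0.5 Mb of its centre lay 20.1% of the chromosome 10 IR sites with tamoxifen (49 of 244) and 23.9% without (34 of 142). Within 2 Mb, a limit chosen after the values were seen, these were 34.8% and 31.7%, in 36 tumours with tamoxifen (67.9%) and 22 untreated tumours (59.5%). For PB sites within 2 Mb the tumours were 35 (66.0%) and 19 (51.4%), and for JX sites 37 (69.8%) and 27 (73.0%). The mean percentage of a tumour's chromosome 10 PB sites within 2 Mb was 36.5 ± 32.1 with tamoxifen and 25.4 ± 30.1 without (SD, n = 47 and 35; two-sided permutation p 0.117, adjusted over 15 added measures 0.593). The JX mean was 27.7 ± 23.5 with tamoxifen and 28.9 ± 26.4 without (SD, n = 49 and 36; permutation p 0.842). In single distance classes the order turned: IR sites 1 to 2 Mb beyond the centre were found in 11 tumours with tamoxifen and 2 without, and those 2 to 5 Mb beyond it in 5 and 9. PB sites in these classes were found in 13 and 3 tumours and in 7 and 10.

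**Figure D3:**
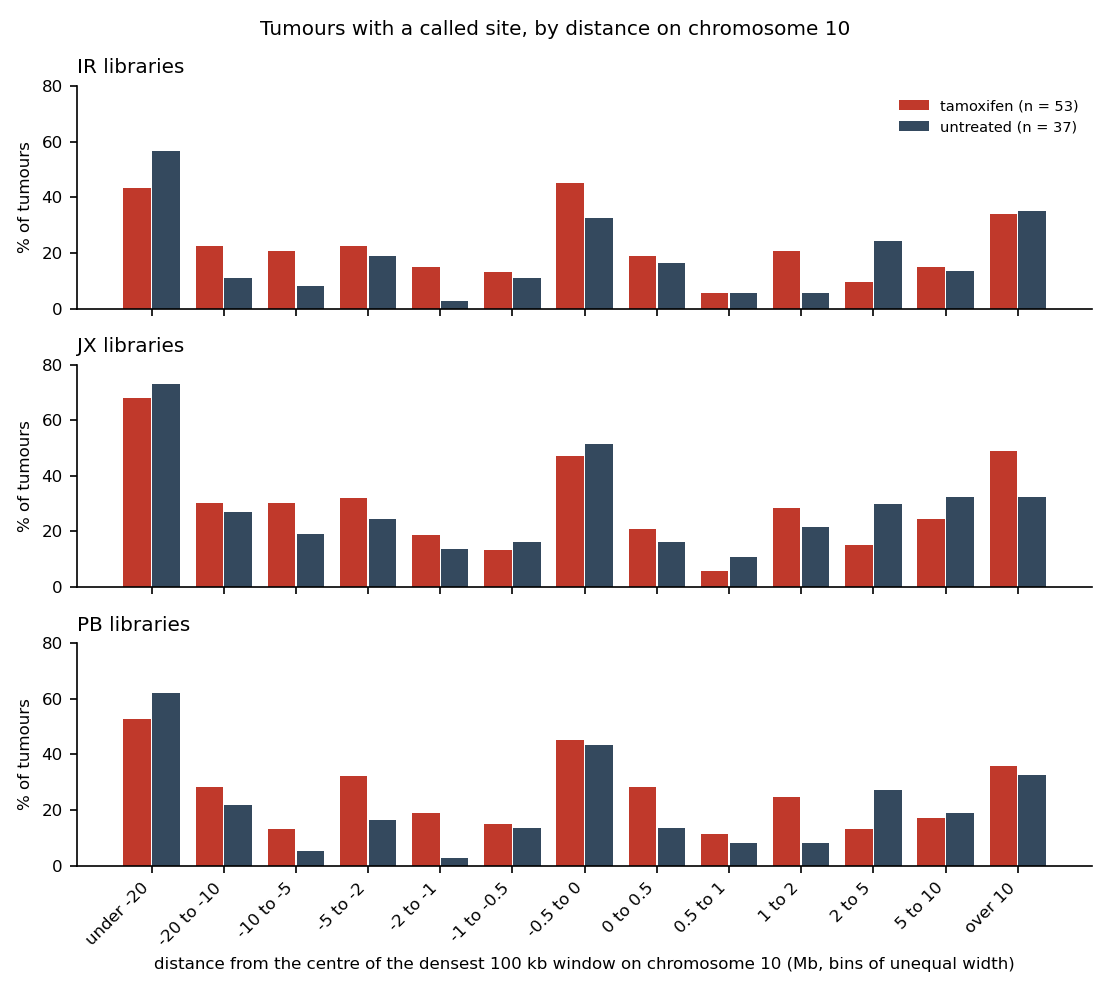
Percentage of tumours with at least 1 called site (vertical axis) by distance from the centre of the densest 100 kb window on chromosome 10 (horizontal axis, Mb, classes of unequal width), for IR, JX and PB libraries, with tamoxifen bars left of untreated bars. In the class from -0.5 to 0 Mb the IR values are 45.3% with tamoxifen and 32.4% without, and in the class from 2 to 5 Mb they are 9.43% and 24.3%.

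Outside chromosome 10 few genes were hit in several tumours. In IR 8 such genes reached 3 tumours, in PB 7 and in JX 94, and 83 of the 94 JX genes had at least 1 site at a position with counts spread over at least 3 animals, none of which held over 50%. Alx4, a homeobox gene on chromosome 2, was the tested IR gene with the lowest p, with 0 tumours with tamoxifen and 3 untreated (p 0.0661 in Fisher's exact test, adjusted 0.738). The sites of those 3 tumours held 0.569%, 5.78% and 48.2% of IR counts at positions 93467115, 93470911 and 93507315, the last in intron 1 and the others upstream. Both of the tumours with higher shares also had a PB site there. BC018507 on chromosome 13 had credited IR sites in 3 and 0 tumours, or called sites in 3 and 1 with shared sites kept in each, and Bai3, an adhesion receptor gene on chromosome 1, in 1 and 2.

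In JX, Prkg1, the gene of a kinase switched on by cGMP, had credited sites in 5 tumours with tamoxifen and 0 without (p 0.0752 in Fisher's exact test, adjusted 0.933). Its 5 sites took at most 0.0650% of a tumour's JX counts, and 4 of them lay at spread positions. Mctp1 had credited JX sites in 0 and 3 tumours, with at most 0.129% of JX counts and 2 of 3 sites at spread positions. Rbms3 had credited JX sites in 1 and 4 tumours, 4 of its 5 sites at spread positions. These counts rest on the crediting: with shared sites kept in every tumour that had them, JX sites were called in 8 tumours with tamoxifen and 2 without at Prkg1, in 13 and 9 at Mctp1 and in 8 and 7 at Rbms3 (p 0.188, 1 and 0.775 in Fisher's exact test, adjusted 1 each). En2, a homeobox gene whose splice acceptor is built into several gene-trap transposons, had credited IR sites in 4 and 0 tumours, 3 of the 4 at spread positions. With shared sites kept in every tumour, En2 IR sites were called in 43 tumours with tamoxifen and 30 without (p 1 in the exact test).

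Listed pathways are given beside all 22353 gene symbols of the deposited table, of which 4.46% had a credited IR site in these tumours, 12.9% a JX site and 5.31% a PB site. These percentages and the list counts below include genes on chromosome 10, the donor chromosome. Tumours with tamoxifen, the larger arm, hit 699 genes in IR and untreated tumours 344, with 2021 and 1134 in JX and 803 and 454 in PB. The 95 potassium channel symbols of the Kcn family, which the series title points to, had called IR sites in 7 genes, JX sites in 18 and PB sites in 11. Such an IR site was seen in 4 tumours with tamoxifen and 2 without, a JX site in 9 and 3 and a PB site in 8 and 3. No Kcn gene reached the 3 tumours needed for a test. Kcnh2, which encodes a voltage-gated channel of the ERG type, had PB sites in 2 tumours with tamoxifen and 0 without, and Kcnb2 had 0 called sites in all 3 kinds.

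Of 30 SHH pathway genes, 5 had IR sites, in 2 tumours with tamoxifen and 3 without, 8 had JX sites, in 5 and 4, and 3 had PB sites, in 1 and 2. Gli3, a transcription factor at the end of the pathway, had JX sites in 1 tumour with tamoxifen and 2 without, and an IR site with 43.9% of counts in 1 untreated tumour. Ptch1 had 1 called IR site, intronic, in an untreated tumour with 0.142% of IR counts. Of 33 genes of human SHH medulloblastoma, 7 had IR sites, 10 JX sites and 5 PB sites. The tumours with and without tamoxifen were 4 and 1, 7 and 4, and 4 and 0. Of 30 genes of mouse models, 9, 11 and 6 were hit, in 7 and 2, 11 and 7, and 4 and 3 tumours. Of the mouse list, Erbb4, a receptor of the neuregulins, had PB sites in 2 tumours with tamoxifen and 0 without and JX sites in 2 and 1. Pdgfra had IR and PB sites in 0 and 1 each and JX sites in 3 and 1. Of 36 chromatin regulators, 8 had IR sites, in 6 tumours with tamoxifen and 1 without, and 7 had PB sites, in 6 and 0. In JX, 13 of the 36 were hit, in 8 tumours with tamoxifen and 7 without. Arid1a, a subunit of a SWI/SNF remodeller, and the histone demethylase relative Jmjd1c each had an IR site in 1 tumour with tamoxifen and none without. Jmjd1c lies on chromosome 10, where local hops collect, and Arid1a on chromosome 4. In JX, Arid1a had a site in 1 tumour of each arm, and Jmjd1c in 2 tumours with tamoxifen and 0 without. Apart from Gli3, Erbb4 and Pdgfra in JX (p 0.566, 1 and 0.641 in Fisher's exact test), the pathway genes named here were hit in fewer than 3 tumours in the kind of library given and were not tested.

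Whether tamoxifen went with a different number of insertions was asked per tumour. Credited IR sites numbered 19.8 ± 45.1 with tamoxifen and 14.1 ± 9.89 without (SD, n = 53 and 37), with medians of 12 in both arms (two-sided permutation p 0.728). Crediting makes these numbers, and those below, depend on the sites of other tumours. One tumour with tamoxifen had 335 called IR sites, the next 45, and the highest untreated tumour 44. That tumour also had the lowest IR depth, 295999 counts, and without it the mean with tamoxifen was 13.7. JX sites numbered 60.9 ± 92.6 and 47.2 ± 69.4 (permutation p 0.458), and PB sites 23.2 ± 35.1 and 18.5 ± 15.1 (permutation p 0.471). Permuted within lanes, these p values were 0.738, 0.451 and 0.463, and the mean with tamoxifen was the higher in 4, 7 and 4 of the 9 lanes for IR, JX and PB. None of 50 measures per tumour passed Benjamini-Hochberg adjustment.

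On and off chromosome 10 the arms also overlapped. Sites on chromosome 10 numbered 4.60 ± 6.39 with tamoxifen and 3.84 ± 3.38 without in IR (permutation p 0.585), 9.64 ± 18.6 and 7.32 ± 7.15 in JX, and 6.77 ± 11.4 and 4.35 ± 3.02 in PB (permutation p 0.230). Elsewhere, tumours with tamoxifen had 15.2 ± 39.3 IR sites and untreated tumours 10.3 ± 7.61, with 51.3 ± 81.1 and 39.9 ± 63.5 for JX and 16.5 ± 25.8 and 14.2 ± 13.4 for PB. Medians in PB were lower with tamoxifen, 3 and 4 sites on chromosome 10 and 8 and 11 elsewhere.

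**Figure D4:**
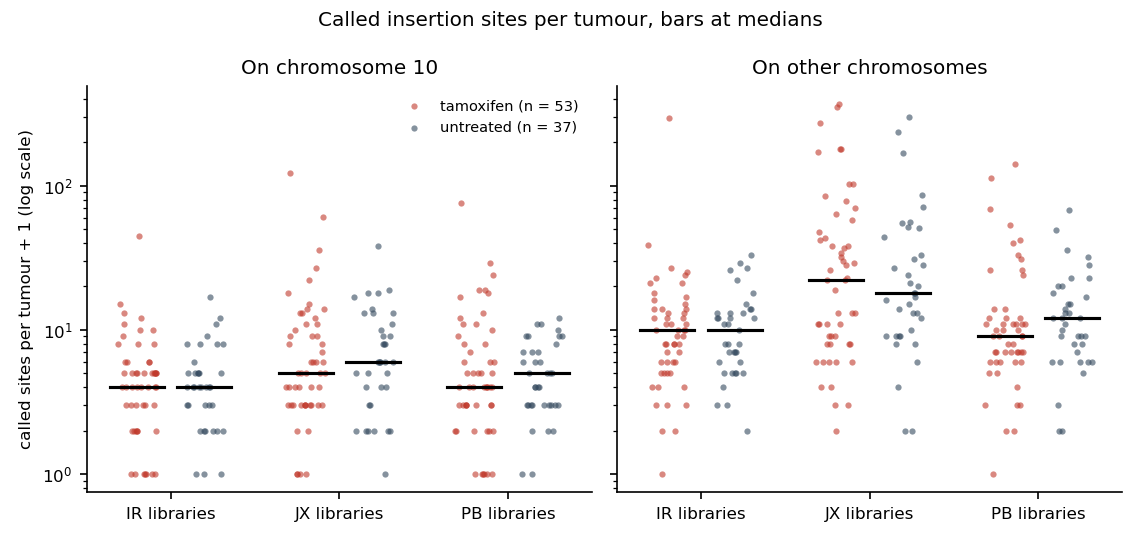
Called sites credited to each tumour plus 1 (vertical axis, log scale) on chromosome 10 and on the other chromosomes in IR, JX and PB libraries, one point per tumour, with tamoxifen left of untreated and bars at the medians. The arms overlap in each panel, and the tumour with tamoxifen and 335 IR sites stands apart at 44 sites on chromosome 10 and 291 elsewhere.

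The weight of the highest site was taken as a rough measure of how clonal a tumour is. It is limited where that site is open to wrong mapping. The highest IR site lay in En2, listed as such a locus, in 7 tumours with tamoxifen and 6 without. In IR the top site carried 28.6% ± 16.2 of a tumour's counts with tamoxifen and 28.4% ± 13.5 without (SD, n = 53 and 37; permutation p 0.941). The highest JX site took 19.7% ± 17.2 and 19.9% ± 17.2, and the highest PB site 37.0% ± 17.8 and 34.1% ± 14.8 (permutation p 0.950 and 0.407). The highest IR site lay on chromosome 10 in 13 tumours with tamoxifen and 11 without (Fisher's exact test, p 0.633), and in Ppp1r12a in 3 and 2. The highest PB site lay in Ppp1r12a in 3 tumours with tamoxifen and 0 without. In 12 tumours the highest IR site was one shared with another tumour, and all 12 lay in En2.

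JX libraries read elements whose SB and PB parts are still joined, and a PB site with no IR or JX count near it is a candidate for a PB part that moved alone. The percentage of called IR sites that the tumour's own JX libraries also read, at up to 100 bp, was 96.1% ± 13.9 with tamoxifen and 97.8% ± 6.47 without (SD, n = 53 and 37; permutation p 0.611). A JX count of 1 was enough for this. Every called IR site had such a JX count in 40 tumours with tamoxifen and 30 without, so the measure had little room to differ. The lowest tumours with tamoxifen were at 4.78%, which is the tumour with 335 IR sites, and 69.6%, and the lowest without were at 66.7% and 83.3%. The percentage of called PB sites lacking any IR or JX count in the surrounding 100 bp was 34.4% ± 24.7 with tamoxifen and 34.2% ± 22.4 without (permutation p 0.967). At 1000 bp these shares were 15.0% and 15.1%. A PB site that is away at 100 bp can still lie close to the tumour's IR site. At Alx4 an untreated tumour had PB sites at 93507123 and 93507390 and an IR site at 93507315, and the PB site at 93507123 counted as away. Such PB sites may belong to 1 insertion called as separate sites, which was not tested.

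**Figure D5:**
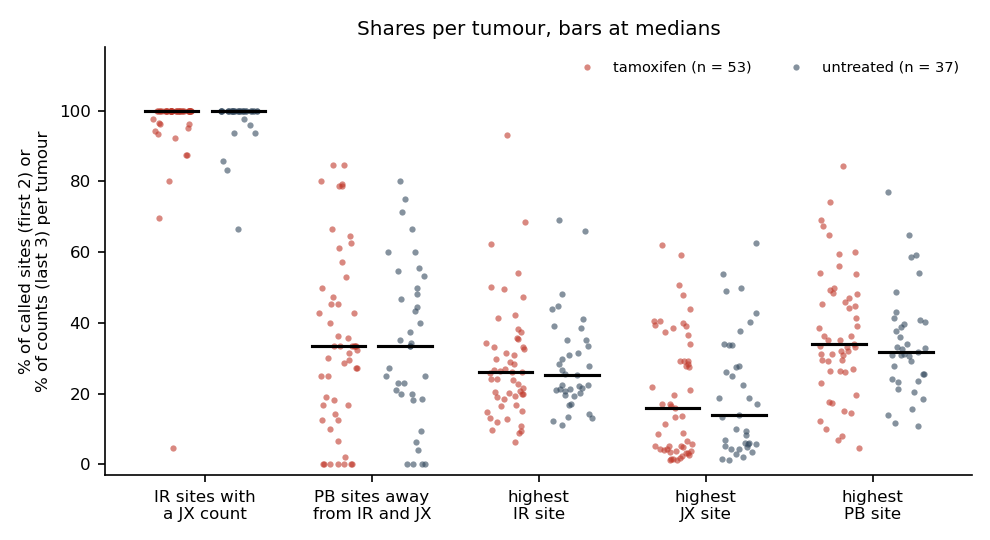
Percentage of called IR sites with a JX count, percentage of called PB sites away from IR and JX counts, and percentage of counts in the highest IR, JX and PB site (vertical axis), one point per tumour, with tamoxifen left of untreated and bars at the medians. The medians of the first measure are 100% in both arms and those of the second 33.3% in both arms.

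PB sites away from other counts also split by gene, as seen after the fact. At Ppp1r12a such sites were found in 6 tumours with tamoxifen and 1 without, at Ppfia2 in 3 and 0, and at Otogl in 2 and 8. With away PB sites alone Otogl had the lowest p of the 5 genes hit in at least 3 tumours, 0.0139 in Fisher's exact test and 0.0696 after adjustment over those 5. At 1000 bp no more than 1 tumour per arm kept such a site at any of these genes, 1 and 0 at Ppp1r12a, 1 and 0 at Ppfia2 and 0 and 1 at Otogl.

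The parts of genes hit did not pass adjustment in any kind of library. On chromosome 10, introns held 51.5% ± 31.7 of IR sites with tamoxifen and 42.5% ± 31.6 without (SD, n = 46 and 34; permutation p 0.217), and 18.3% ± 18.5 and 27.2% ± 28.8 had no listed gene (permutation p 0.094). Exons held 0.0494% ± 0.335 of chromosome 10 IR sites with tamoxifen and 4.63% ± 12.8 without, the lowest p of the 50 measures (permutation p 0.0117, adjusted 0.585). Exonic chromosome 10 IR sites were found in 1 tumour with tamoxifen and 5 untreated tumours. Off chromosome 10, introns held 45.9% ± 23.1 and 47.0% ± 21.1 of IR sites and exons 3.01% ± 7.57 and 2.09% ± 5.45.

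Differences between the arms were set against those in tumours launched from chromosome 7. Over 17 measures the difference of differences had a lowest permutation p of 0.118 (adjusted 0.610), for the JX share on the donor chromosome. That share was 20.8% with tamoxifen and 23.0% without in chromosome 10 launched tumours, against 20.04% and 12.0% in chromosome 7 launched tumours. IR sites per tumour averaged 19.8 and 14.1 in the first and 18.6 and 22.5 in the second (permutation p 0.374). No difference with tamoxifen was thus shown to be particular to chromosome 10 launched tumours.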

How the data were processed

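Tumour DNA was sheared, joined to splinkerette adaptors, cut with BamHI and amplified in a primary and a secondary PCR from the SB part, the PB part or their boundary, per the labels' protocols. The deposited values are raw read counts for each insertion position in each library, and the positions are in mm9, as named in the submitters' processing notes. The sources used here do not say which aligner, counting rule, filters or gene annotation the authors used. Arm, donor, lane and listed days came from the authors' deposited sample sheet, and the animal was the replicate. Spellings of 1 ID that differed by an initial zero were taken as 1 animal, and 5 animals were in 2 lanes. No column of samples outside the series was used.

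Both ends and repeat lanes were summed per animal and kind of library. A called site shared by animals was credited to the one with the highest share. Genes are those the deposited table lists, inside or outside the gene body. Genes and 100 kb windows hit in at least 3 animals were compared by two-sided Fisher's exact tests, and 50 measures per animal by two-sided permutation of means (100000 resamples), each with Benjamini-Hochberg adjustment over genes or windows of a kind or over the 50 measures. Every alternative setting was adjusted over the same 50 measures. A further 15 measures and 17 differences between donors were tested likewise. Python 3.11.15, numpy 2.4.6, scipy 1.17.1 and pandas 2.3.3 were used, and the tests were checked on simulated data.

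Named genes were, per kind, the 10 hit in the most tumours on chromosome 10 and the 10 elsewhere, the 8 with the lowest p in each, up to 4 members of each list, Ptch1 and Kcnb2, and not every one is given. The tumours, genes and lists were chosen with earlier results of these data known. Alternatives were the site call, merging distance, spread positions, crediting, single ends, left-out animals, lanes as strata, gene bodies, thresholds and window widths. No genome of mm9 was used, so no sequence at a site was read. Results for 1 listed gene are not reported here.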

Additional observations from a re-analysis of the deposited data

How the results depend on the processing

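In each setting that recomputed them, 0 genes (16 settings for IR and JX, 18 for PB), 0 windows (15 and 17), 0 gene part measures (14) and 0 differences between donors (12) passed an adjusted p of 0.05, the lowest being 0.0696 for PB genes. Over 26 settings 584 of 642 recomputed values kept their direction and side of the threshold, and 58 changed sign. Differences below are tamoxifen minus untreated, in sites, percentage points of sites or counts, or percentage points of tumours hit. Ppfia2 in PB stayed between 5.66 and 18.9 points and Ppp1r12a in PB between 0.204 (right end) and 21.0. The settings that use away or near PB sites, leave out 12 animals under 20000 PB counts or 12 that share their highest IR site, or remove En2, Foxf2 and Sfi1 were chosen after seeing the data.

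The percentage of PB sites that lie away from IR and JX counts, 0.211 in the main setting, was -4.85 at a site call of 0.1%, -1.23 at 5%, -0.268 at 50 counts, -1.66 with merging within 100 bp, -0.489 with shared sites credited to every animal, -3.27 with left ends, -0.652 without the animal with the most sites, -0.0523 at 1000 bp, -2.45 without low PB animals and -0.897 without animals sharing their highest site. At 10 bp it was 3.58 (permutation p 0.0381, adjusted over the 50 measures 0.942). The share of JX counts in the highest site, -0.232, was 9.74 with right ends (permutation p 0.00143, adjusted 0.0715), 0.121 without the animal with the most sites, 1.84 with medians, 1.9997 without low PB animals, 0.601 without animals sharing a highest site and 1.04 with En2, Foxf2 and Sfi1 removed. For IR the same share was -5.44 with left ends, -3.52 with right ends and -3.07 without low PB animals, and for PB -2.11 with right ends.

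Site numbers changed sign for IR at a call of 5% (-0.0362 in all, -0.152 on chromosome 10) and without the animal with the most sites (-0.424 in all, -0.432 off chromosome 10). For JX they did so with right ends (-18.2 in all, -2.32 on and -15.9 off chromosome 10), with medians (-1 on chromosome 10), without low PB animals (-1.62 off) and without animals sharing a highest site (-0.934 on). For PB they did so at 5% (-0.199, -0.0316 on, -0.168 off), with medians (-2, -1 on, -3 off), without the animal with the most sites (-0.131 off) and without animals sharing a highest site (-0.568, -1.03 off). The JX share of sites on chromosome 10 was 4.50 at 0.1%, 1.09 at 5% and 4.61 with right ends, and the IR share -0.901 with right ends. The share of IR sites with a JX count was 0.193 with left ends and 0.0590 without the animal with the most sites. Ppp1r12a in JX was 7.65 at 0.1%, 2.35 with shared sites credited to every animal, 2.09 with left ends, 10.1 with right ends, 10.8 in gene bodies, 0.134 without low PB animals and 0.459 with the 3 loci removed. Nav3 in JX was -0.918 at 0.1% and -0.206 without animals sharing a highest site, and Otogl was 4.79 in IR with merging within 100 bp, 2.09 and 1.02 in IR with left and right ends, and 1.58 in PB with right ends. The cause was not tested. No paired analysis was possible because the arms are different animals and lanes hold both. PB depth, down to 1714 counts, limits low sites.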

Other observations

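Positions of En2, Foxf2 and Sfi1, listed as loci open to wrong mapping, held a median of 2.95% of a tumour's IR counts with tamoxifen (0.0322% to 41.1%) and 3.91% without (0.0951% to 31.1%). With these positions removed before the site call, Ppfia2 had called PB sites in 10 tumours with tamoxifen and 0 untreated tumours (18.9 percentage points, Fisher's exact test, p 0.00462, adjusted 0.263), and Ppp1r12a in 22 and 8.

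The distance that the deposited table lists for sites upstream of a gene was measured from the same gene end as for downstream sites in 5446 of 5695 genes with both (95.6%), so it includes the length of the gene. Listed distances were not used here.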
